A study of Mus musculus with 33 samples.

Results

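The Slc25 genes encode the mitochondrial carriers, a family of inner membrane proteins, and were read here in single mouse heart cells. Members were taken as every row of the deposited count table whose symbol begins with Slc25a, which gave 41 of 14862 gene rows, and 39 of these had at least 10 counts over all cells and were kept. Slc25a18 (1 count) and Slc25a29 (9 counts) fell below this minimum, whereas Slc25a35 (10 counts) and Slc25a45 (13 counts) lay just above it. The cells came from the ventricles of transgenic mice with Azami green fused to geminin (mAG-hGem), the FUCCI reporter whose green signal marks S, G2 and M phase, and every group carried this transgene. Sorting gave 10 positive and 11 negative cells at embryonic day 14.5 (E14.5), and 6 positive and 6 negative cells at postnatal day 5 (P5), which are called embryonic and postnatal positive or negative cells below. The strain and the number of animals are not given in the sources used here.

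A mitochondrial carrier moves a single kind of solute, or exchanges a pair of solutes, across the inner membrane, which is otherwise closed to charged metabolites. The adenine nucleotide translocases export the ATP made in the matrix in exchange for ADP, and the phosphate carrier supplies the phosphate that ATP synthase needs. Other members run the malate-aspartate shuttle, bring in acylcarnitines for fatty acid oxidation, or carry iron, glutathione, nucleotides and cofactors. In mice Slc25a4 encodes the translocase isoform typical of heart and skeletal muscle (Ant1), and Slc25a5 encodes the isoform typical of proliferating cells and many other tissues (Ant2). The heart relies more on fatty acid oxidation after birth than before it.

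Slc25a4, Slc25a5 and Slc25a3 supplied most of the family's counts, so the 250 bases before the RefSeq start of each gene (build GRCm38.p6) are printed for comparison, 5′ to 3′ on the gene's strand. Capitals mark matches to the motifs searched on both strands, which were the box with letters CCAAT, the GC box with letters GGGCGG, the box with letters TATAAA, the core motif of nuclear respiratory factor 1, the core motif of estrogen-related receptors (AAGGTCA) and the cyclic AMP response core TGACGT.
Slc25a4, chr8:46211063-46211312, minus strand: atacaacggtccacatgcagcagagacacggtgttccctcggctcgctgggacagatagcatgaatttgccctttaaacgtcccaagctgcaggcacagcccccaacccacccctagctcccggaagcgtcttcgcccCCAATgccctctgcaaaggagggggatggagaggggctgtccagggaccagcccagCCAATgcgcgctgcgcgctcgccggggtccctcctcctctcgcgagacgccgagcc
Slc25a5, chrX:36795347-36795596, plus strand: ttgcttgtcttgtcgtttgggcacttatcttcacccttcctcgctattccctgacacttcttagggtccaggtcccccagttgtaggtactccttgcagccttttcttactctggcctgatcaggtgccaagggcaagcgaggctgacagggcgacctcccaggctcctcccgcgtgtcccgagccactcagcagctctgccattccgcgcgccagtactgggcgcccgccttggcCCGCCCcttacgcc
Slc25a3, chr10:91123968-91124217, minus strand: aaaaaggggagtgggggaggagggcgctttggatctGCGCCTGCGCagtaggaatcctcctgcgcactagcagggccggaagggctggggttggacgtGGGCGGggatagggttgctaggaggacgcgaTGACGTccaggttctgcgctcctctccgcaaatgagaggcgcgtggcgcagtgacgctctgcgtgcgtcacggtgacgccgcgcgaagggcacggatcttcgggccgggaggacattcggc

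The windows of the muscle and the proliferation-type translocase shared none of these motifs. Slc25a4 held CCAAT at 112 to 108 and at 56 to 52 bases before the start, and Slc25a5 held a GC box, read on the reverse strand, at 14 to 9 bases. Slc25a3 held the nuclear respiratory factor 1 core at 214 to 205, a GC box at 152 to 147 and TGACGT at 121 to 116 bases before the start. GC content was 64.8% for Slc25a4, 61.6% for Slc25a5 and 66.4% for Slc25a3. Of the 39 members, 30 had promoter entries in the RefSeq table, 38 in all, and entries of a gene can overlap. CCAAT was present in 18 of the 38 (47.4%) and in 33.8% of all 32851 entries, and the GC box in 28 (73.7%) and in 32.7% of all. TATAAA matched 0 of the 38 and 12.4% of all entries, and the nuclear respiratory factor 1 core matched 2 (of Slc25a3 and Slc25a31, 5.26%) and 3.74% of all. AAGGTCA matched 1 entry, of Slc25a34 (2.63%), and 4.08% of all, and TGACGT matched 4 (10.5%) and 6.47%. Positions are counted from the RefSeq starts, and the GENCODE genes begin elsewhere: 222 of the 250 bases for Slc25a4, 92 for Slc25a3 and 0 for Slc25a5 lie inside the gene as GENCODE M21 annotates it. A match describes letters in this window and not binding.

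Totals per cell ran from 2.54 to 38.5 M (1 M is 1000000 counts) with a median of 12.8 M, and the cells of a group summed to 158 M (embryonic positive), 195.5 M (embryonic negative), 92.1 M (postnatal positive) and 82.9 M (postnatal negative). The labels call every sample a cardiomyocyte. Cardiomyocyte markers led the marker lists in 10 of 10 embryonic positive, 10 of 11 embryonic negative and 5 of 6 postnatal positive cells, and in 0 of 6 postnatal negative cells. The summed level of the 11 cardiomyocyte markers was 13555 to 36326 counts per 1000000 (CPM) in embryonic positive cells, 14789 to 37020.2 CPM in embryonic negative cells and 0.345 to 3287 CPM in postnatal negative cells. Among postnatal positive cells it reached 104207 CPM, but was 94.2 CPM in cell L2P12, where the 6 endothelial markers summed to 4615 CPM. In the embryonic negative cell N10 the 6 fibroblast and mural markers found summed to 46245 CPM. N10 also had 21208 CPM of cardiomyocyte markers, of which 10 of 11 reached 10 CPM. Values are therefore given with and without L2P12 and N10 where they decide a result, and comparisons with postnatal negative cells set cells with different markers side by side, so that age or reporter state and cell type cannot be told apart there. Each sample is 1 cell and no label names its animal, so each group counts as 1 sample, no test between groups was made, and 95% Poisson intervals cover counting error only.

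The family took 2.03% of all counts in embryonic positive cells, 2.53% in embryonic negative cells, 2.49% in postnatal positive cells and 0.482% in postnatal negative cells. By cell, the lowest, median and highest shares were 1.62%, 1.94% and 2.96% in embryonic positive cells and 1.31%, 2.65% and 3.87% in embryonic negative cells. In postnatal positive cells they were 0.637% (the lowest, in L2P12), 3.18% and 5.03%, and in postnatal negative cells 0.236%, 0.441% and 0.796%. Every postnatal negative cell thus lay below every E14.5 cell in its share of carrier counts. Among postnatal positive cells, L2P3 (3.16%), L1P5 (3.20%), L2P7 (4.17%) and L2P10 lay above every embryonic positive cell. L2P8 (1.613%) lay just below the lowest embryonic positive cell (1.618%), and L2P12 far below it. Slc25a4, Slc25a5 and Slc25a3 held 96.2% of the family's counts in embryonic positive, 94.7% in embryonic negative, 95.4% in postnatal positive and 83.6% in postnatal negative cells.

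Per 1000 exon bases, the same 3 genes were the first 3 of the family in each group. Slc25a4 stood at 6038 CPM per 1000 exon bases in embryonic positive cells and Slc25a5 at 5554, which is 48.8% and 44.9% of the family's summed level on this scale. In postnatal positive cells Slc25a4 reached 9040 (64.5%) and Slc25a5 3602 (25.7%). In embryonic negative cells the levels were 7711 and 6387, and in postnatal negative cells the order was turned, with Slc25a5 at 1491 and Slc25a4 at 878. Slc25a3 followed in the third place with 528, 606, 956 and 249 CPM per 1000 exon bases in embryonic positive, embryonic negative, postnatal positive and postnatal negative cells.

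**Figure D1:**
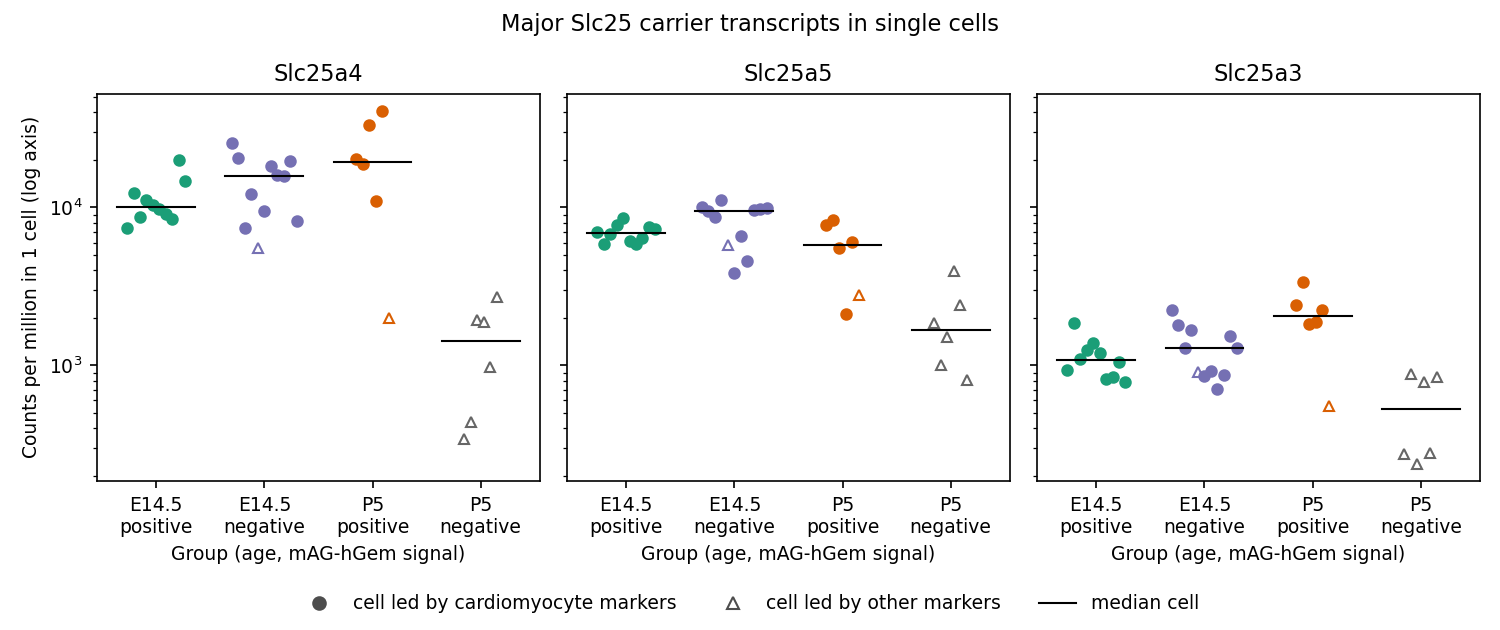
CPM of Slc25a4, Slc25a5 and Slc25a3 (log axis) in each of the 33 cells, by group, with the group's median cell. Slc25a4 spans 7416 to 19945 CPM in embryonic positive cells and 1994 to 40716 CPM in postnatal positive cells, and postnatal negative cells stay at or below 2699 CPM.

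Slc25a4, on chromosome 8 at 46206797 to 46211284 (minus strand, mm10), was measured at 11622 CPM in the summed embryonic positive cells (95% Poisson interval 11605 to 11639) and at 17402 CPM in the summed postnatal positive cells (17375 to 17429). Its lowest, median and highest cells stood at 7416, 10101 and 19945 CPM in embryonic positive cells, and at 1994, 19479 and 40716 CPM in postnatal positive cells. The postnatal positive cells straddled the range of the embryonic positive cells, with L2P12 far below it, and L1P5 (20219 CPM), L2P7 (33361 CPM) and L2P10 above it. The log2 ratio of postnatal positive over embryonic positive cells was 0.58, and 0.95 without L2P12, so it stayed short of 2-fold in both. embryonic negative cells ranged from 5572 CPM in N10 through a median of 15917 to 25469 CPM in N3, summed 14843 CPM, and overlapped the positive cells at a log2 ratio of -0.35 for positive over negative.

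Slc25a5, on chromosome X at 36795651 to 36798807 (plus strand), was lower in the summed postnatal positive than in the summed embryonic positive cells, the opposite order to Slc25a4. The annotation holds a pseudogene copy, Slc25a5-ps, and how reads shared with it were counted is not given in the sources used here. Its summed level was 6887 CPM (interval 6874 to 6899.7) in embryonic positive cells and 4466 CPM (4452 to 4479.7) in postnatal positive cells, a log2 ratio of -0.62, or -0.46 without L2P12. By cell it was 5843, 6875 and 8529.6 CPM (lowest, median, highest) at E14.5 and 2118, 5763 and 8389 CPM at P5. The embryonic positive cells lay close together, and the P5 range reached lower but still overlapped them. L2P8 (2118 CPM) and L2P12 (2785 CPM) lay far below the embryonic positive range, and L2P7 (5519 CPM) just below it. L2P10 (6006 CPM), L1P5 (7733 CPM) and L2P3 lay inside that range. Leaving out single cells moved the log2 ratio to between -0.90 and -0.34. Neither gene passed 2-fold, and the signs, Slc25a4 higher and Slc25a5 lower at P5, were the same with equal weights for cells, edgeR's factors and DESeq2's size factors.

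The ratio of the isoforms within a cell does not depend on scaling. Summed counts gave 1.69 Slc25a4 counts per Slc25a5 count in embryonic positive cells, 1.87 in embryonic negative, 3.90 in postnatal positive (4.47 without L2P12) and 0.914 in postnatal negative cells. Corrected for exon length (1925 bases for Slc25a4 and 1240.0 for Slc25a5), these were 1.09, 1.21, 2.51 (2.88 without L2P12) and 0.589. On the log2 scale of counts, single embryonic positive cells ran from 0.08 in G1 through a median of 0.58 to 1.41 in G28. postnatal positive cells ran from -0.48 in L2P12 through 1.16 in L2P3, 1.39 in L1P5, 2.36 in L2P8 and 2.60 in L2P7 to 2.76 in L2P10. In counts, Slc25a4 was thus ahead in 10 of 10 embryonic positive and 5 of 6 postnatal positive cells. These orders hold no correction for exon length, which took the summed embryonic positive ratio from 1.69 to 1.09. On the log2 scale, 3 of the P5 cells lay above every E14.5 cell of either sort.

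The isoform ratio in postnatal positive cells was 2.31-fold that in embryonic positive cells (log2 difference 1.21), and 2.65-fold (1.40) without L2P12. Leaving out any other single cell moved the log2 difference to between 0.94 and 1.46. The lower value, obtained without L2P10, is under 2-fold. The difference by reporter state at E14.5 was small, since positive minus negative was -0.15 and leaving out single cells gave -0.33 to -0.04. embryonic negative cells ran from -0.26 in N30 through 1.02 to 1.8 in N24. Without correction for exon length, 8 of 11 had more counts of Slc25a4 than of Slc25a5. The titles number the E14.5 cells in 2 ranges, and the ratio was lower in numbers 1 to 10 (log2 0.49 in 6 positive and 0.52 in 5 negative cells) than in numbers 21 to 30 (0.90 in 4 positive and 1.05 in 6 negative cells). What these ranges stand for is not given in the sources used here, and their part in the comparison with P5 was not tested.

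In postnatal negative cells Slc25a4 ran from 344 through a median of 1434 to 2699 CPM and Slc25a5 from 814 through 1686 to 3958 CPM. In counts not corrected for exon length, only 2 of 6 cells, L2N7 and L2N12, had more Slc25a4. The log2 ratio of counts spanned -2.43 (L1N3) to 1.73 (L2N12). Summed over the group it was -0.13, which leaving out L2N12 moved to -0.56 and leaving out L2N9 to 0.12. Endothelial markers led 5 of these cells, of which L2N7 had more Slc25a4 counts and the other 4 more Slc25a5 counts. Fibroblast and mural markers led L2N12 (19402 CPM). L2P12, led by endothelial markers, had more Slc25a5 counts, and so did N7 and N30, which cardiomyocyte markers led, and N10. The part of cell type in the isoform order was not tested.

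**Figure D2:**
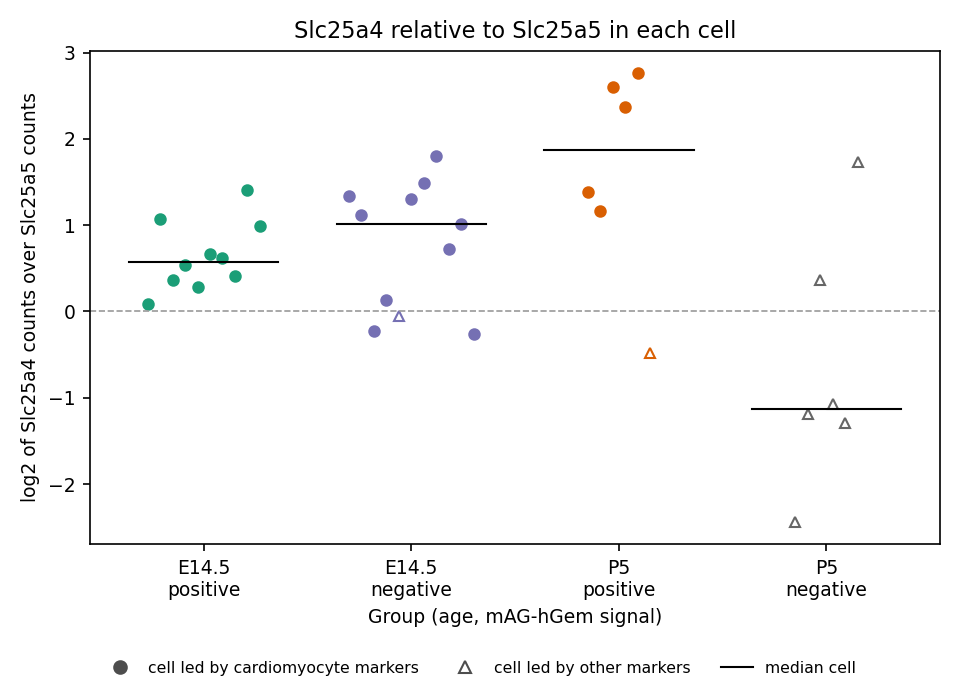
Log2 ratio of Slc25a4 to Slc25a5 counts in each cell, by group, with the group's median cell. embryonic positive cells lie between 0.08 and 1.41, 5 of the 6 postnatal positive cells lie between 1.16 and 2.76, and L2P12 and 4 of the 6 postnatal negative cells lie below 0.

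Slc25a3, the phosphate carrier (chromosome 10, 91116574 to 91124059, minus strand), was measured at 1028 CPM in embryonic positive, 1179 CPM in embryonic negative, 1860.2 CPM in postnatal positive and 486 CPM in postnatal negative cells. embryonic positive cells held 780.5, 1075 and 1847 CPM (lowest, median, highest), and postnatal positive cells 556, 2054 and 3387 CPM. The lowest postnatal positive cell was again L2P12, L2P7 at 1830.0 CPM lay just inside the E14.5 positive range, and the other 4 cells lay above it. The log2 ratio of postnatal positive over embryonic positive cells was 0.86, under 2-fold, and 1.15 without L2P12, past 2-fold. At E14.5, positive over negative was -0.20.

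The malate-aspartate shuttle carries reducing equivalents of cytosolic NADH into mitochondria and uses the oxoglutarate-malate carrier (Slc25a11) and the aspartate-glutamate carriers aralar (Slc25a12) and citrin (Slc25a13). Slc25a11, on chromosome 11 at 70644196 to 70647479 (minus strand), stood at 83.5 CPM in embryonic positive and 216 CPM in postnatal positive cells, a log2 ratio of 1.37. Single embryonic positive cells ran from 52.4 through 81.4 to 154 CPM and postnatal positive cells from 40.6 in L2P12 through 239 to 843 CPM in L1P5. Without L2P12 the log2 ratio was 1.71 and the cells of the groups no longer overlapped, which held for 1 of 36 members tested and for 2.07% of all genes tested. With L2P12 no member separated the groups, against 0.979% of all genes tested.

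Slc25a12, on chromosome 2 at 71271063 to 71367749 (minus strand), stood at 109 CPM in embryonic positive and 251 CPM in postnatal positive cells, a log2 ratio of 1.20. A single P5 cell, L2P8, held 55.7% of the P5 counts, and without it the ratio was 0.52. Without L2P12, which had 0.489 CPM, it was 1.60. The median embryonic positive cell had 145 CPM in a range of 20.7 to 189 CPM, and the median postnatal positive cell 261 CPM with a highest value of 481 CPM, so the groups overlapped. Slc25a13, on chromosome 6 at 6041218 to 6217173 (minus strand), was nearly level at 138 CPM in embryonic positive and 142 CPM in postnatal positive cells, with cells from 13.3 to 377 CPM at E14.5 and from 0 (L1P5) to 284.5 CPM at P5. Its log2 ratio of 0.05 became -0.72 without L2P8.

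In counts, aralar over citrin was -0.33 on the log2 scale in embryonic positive and 0.82 in postnatal positive cells. The exons of Slc25a12 are longer (6351 bases) than those of Slc25a13 (3122 bases). Per 1000 exon bases Slc25a13 stood above Slc25a12 in both groups. The levels were 44.1 and 17.2 CPM in embryonic positive cells, and 45.5 and 39.5 CPM in postnatal positive cells. Leaving out single cells moved the log2 ratio of counts to -0.54 to -0.07 at E14.5 and 0.68 to 0.90 at P5. The single cells overlapped, since 5 of 10 embryonic positive and 5 of 6 postnatal positive cells had more counts of Slc25a12 than of Slc25a13. In embryonic negative cells the log2 ratio of counts was 0.35. postnatal negative cells had 3.10 CPM of Slc25a12 and 1 count in total of Slc25a13, where both genes had at least 100 CPM in each of the other groups.

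**Figure D3:**
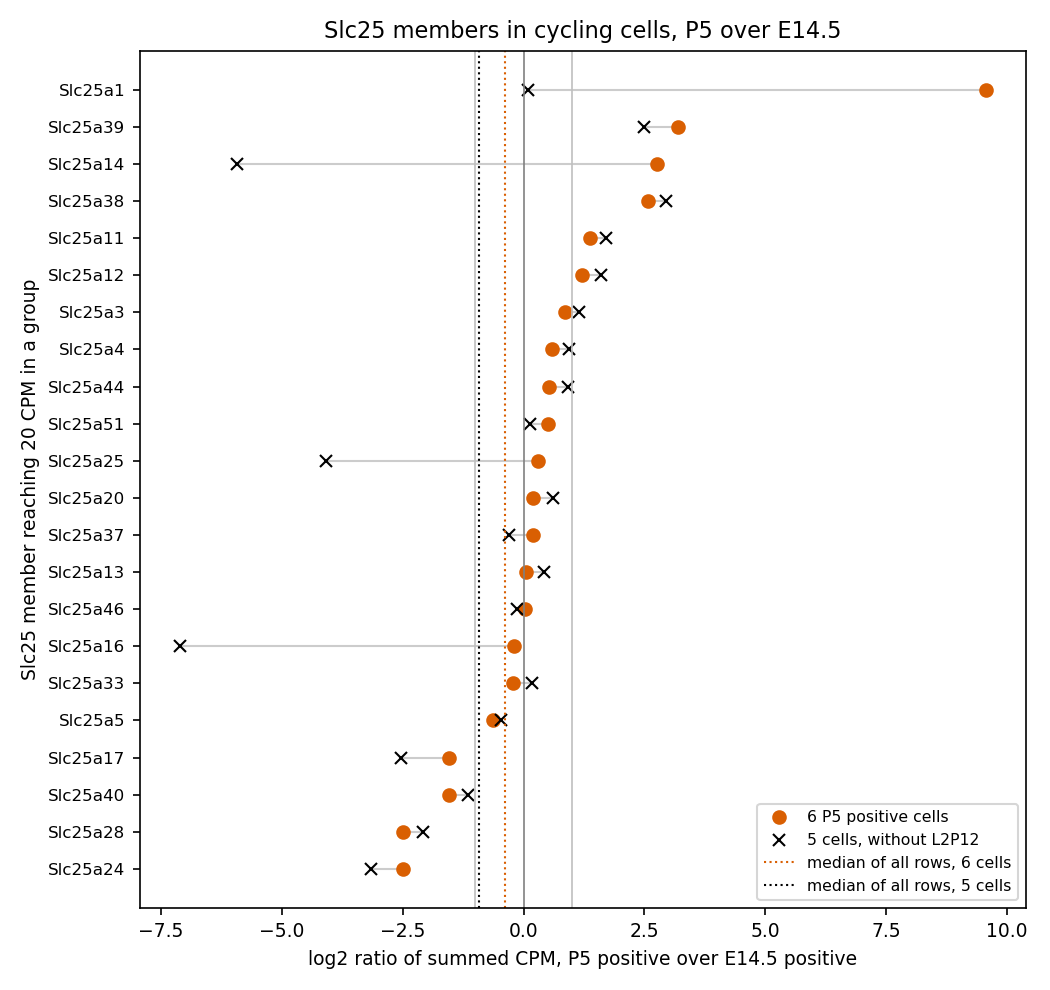
Log2 ratio of summed counts, postnatal positive over embryonic positive cells, for the described members, with (circles) and without (crosses) cell L2P12, where grey lines mark 0 and 2-fold and dotted lines the median of all genes. Slc25a11, Slc25a12, Slc25a38 and Slc25a39 stay above 1 and Slc25a17, Slc25a24, Slc25a28 and Slc25a40 below -1 in both, whereas Slc25a14 turns from 2.75 to -5.93.

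Slc25a20 brings acylcarnitines into the matrix for fatty acid oxidation. It stood at 32.3 CPM in embryonic positive, 53.0 CPM in embryonic negative, 37.2 CPM in postnatal positive and 34.0 CPM in postnatal negative cells. By cell it spanned 0.692, 23.4 and 116.5 CPM (lowest, median, highest) in embryonic positive cells and 0.0444, 46.5 and 69.2 CPM in postnatal positive cells, and the groups overlapped. G28 held 54.8% of the embryonic positive counts, and the log2 ratio of postnatal positive over embryonic positive cells was 0.20 with it and 1.11 without it. Slc25a17, a peroxisomal carrier of cofactors such as coenzyme A, was lower at P5. Summed levels were 44.5 CPM in embryonic positive and 15.3 CPM in postnatal positive cells, a log2 ratio of -1.54. L2P12 held 62.4% of the P5 counts, and without it the ratio was -2.54. The median cell was lower too, with 13.0 CPM at P5 against 48.4 CPM at E14.5, although the ranges of 0 to 54.6 and 0.179 to 106 CPM overlapped.

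Slc25a39 and Slc25a40 carry glutathione, the thiol antioxidant, into mitochondria. Slc25a39 stood at 7.82 CPM in embryonic positive and 71.4 CPM in postnatal positive cells. embryonic positive cells ran from 3.63 through 7.46 to 15.8 CPM, and postnatal positive cells from 5.89 in L1P5 through 45.3 to 157 CPM in L2P12. Apart from L1P5 every postnatal positive cell lay above every embryonic positive cell. The log2 ratio was 3.19, and 2.48 without L2P12, which held 53.7% of the P5 counts. Slc25a40 stood at 9.89, 22.2, 3.38 and 9.33 CPM in embryonic positive, embryonic negative, postnatal positive and postnatal negative cells, and its median cell was below 1 CPM in each group.

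The mitoferrins Slc25a37 and Slc25a28 import iron for heme and iron-sulfur clusters. Slc25a37, the erythroid form, was measured at 14.3 CPM in embryonic positive and 59.6 CPM in embryonic negative cells, where N23 alone (231 CPM) held 59.1% of the counts and 5 of 11 cells reached 10 CPM. The log2 ratio of positive over negative cells was -2.06, and -1.01 without N23. At P5 the positive cells had 16.3 CPM and the negative cells 17.3 CPM, and 82.2% of the negative counts came from L2N10 (81.2 CPM), a cell whose red blood cell markers summed to 2939 CPM. L1N3, whose red blood cell markers summed to 2850.5 CPM, had 0 counts of the carrier. The part of that signal in the carrier's level was not tested. Slc25a28 stood at 6.41, 3.75, 1.14 and 25.6 CPM in the order embryonic positive, embryonic negative, postnatal positive and postnatal negative, with 79.3% of the last from L2N9. Slc25a38, which supplies glycine for heme, stayed at 1.32 and 1.18 CPM in embryonic positive and negative cells and stood at 7.80 and 29.7 CPM at P5, with 88.0% of the postnatal negative counts in L2N7.

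Slc25a51, the carrier of NAD, was present at 10 CPM or more in all 10 embryonic positive cells (11.7, 54.2 and 81.3 CPM, lowest, median, highest) and all 6 postnatal positive cells (27.9, 81.6 and 127 CPM). Its log2 ratio between them was 0.50, and 0.13 without L2P12. Slc25a16, linked to coenzyme A, reached 10 CPM in 8 of 10 embryonic positive and 3 of 11 embryonic negative cells, with medians of 31.7 and 0 CPM and summed levels of 42.2 and 20.9 CPM. That log2 ratio of 1.01 is at the edge of 2-fold. It was under 1 without any of G10, G27, G28, N3, N7, N8, N21, N24, N25, N28 or N30, with 0.74 without N28 the lowest, and 2.07 without N23. In postnatal positive cells 99.4% of its counts, at 36.9 CPM, came from L2P12.

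Slc25a33, a pyrimidine nucleotide carrier, was at 28.6 CPM in embryonic positive and 7.98 CPM in embryonic negative cells, with 6 of 10 and 2 of 11 cells at 10 CPM or more. The log2 ratio was 1.84. Without G27, which held 57.6% of the positive counts, it was 1.00, and without N21, which held 78.5% of the negative counts, it was 3.96. The other pyrimidine carrier, Slc25a36, was also higher in positive cells, at 10.3 against 1.68 CPM, but reached 10 CPM in only 3 of 10 of them.

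Slc25a24 and Slc25a25 exchange ATP-magnesium for phosphate under the control of calcium. Slc25a24 was lower in postnatal positive (4.76 CPM) than in embryonic positive cells (26.9 CPM), a log2 ratio of -2.50, with medians of 0.938 and 14.1 CPM. A few cells carried its counts. Without G29, at 100.1 CPM, the ratio was -1.75, without L1P5, at 71.1 CPM, it was -3.22, and without L2P12 it was -3.15. Slc25a25 was low in embryonic positive (2.57 CPM), embryonic negative (2.96 CPM) and postnatal positive cells (3.17 CPM) and stood at 98.2 CPM in postnatal negative cells. There 4 of 6 cells had at least 10 CPM and the highest, L2N9, had 221 CPM. Of the postnatal positive counts, 96.6% came from L2P12, so that the log2 ratio of postnatal positive over postnatal negative cells of -4.95 became -9.35 without it.

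Slc25a46, an outer membrane member with a part in mitochondrial fission and fusion, differed at E14.5 in sums and in the median cell. The positive cells had 116 CPM and the negative cells 425 CPM, a log2 ratio of -1.87. Positive cells ran from 9.63 through 62.2 to 404 CPM and negative cells from 8.51 through 152 to 1007 CPM, so the ranges overlapped almost fully. G28 held 52.7% of the positive counts and N28 held 41.7% of the negative counts. Leaving out single cells moved the log2 ratio to between -2.71 (without G28) and -1.37. In postnatal positive cells its level was 119 CPM, with a median of 114 CPM.

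L2P12 alone supplied nearly all postnatal positive counts of 3 further members. It held 99.9% of those of Slc25a1, the citrate carrier that feeds lipid synthesis (35.6 CPM in the group), and 99.8% of those of Slc25a14, a carrier related to the uncoupling proteins (32.5 CPM). The third is Slc25a16, given above. Slc25a1 was also present in postnatal negative cells at 50.7 CPM, with 3 of 6 cells at 10 CPM or more, and was at 0.0443 CPM in embryonic positive and 1.10 CPM in embryonic negative cells. Slc25a14 had 0 counts in postnatal negative cells, which allows up to 0.0445 CPM by the exact Poisson interval. Slc25a44, a carrier of branched-chain amino acids, had 85.9% of its embryonic negative counts (16.3 CPM) in N10, and its log2 ratio of embryonic positive over negative cells was -0.85 with N10 and 1.82 without it.

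The remaining 16 members stayed under 20 CPM in each group, with Slc25a36 in postnatal negative cells the highest at 15.3 CPM. They include the dicarboxylate carrier Slc25a10, which was at 1.32 CPM in embryonic positive and 13.5 CPM in postnatal positive cells (64.9% of the latter counts in L2P8), and the S-adenosylmethionine carrier Slc25a26, at 6.69 CPM in embryonic negative and 1.95 CPM in embryonic positive cells. Slc25a31, the testis translocase, was read in G1 alone, at 5.87 CPM. Across all 39 members, a single cell held over 50% of the counts of 15 members in embryonic positive, 18 in embryonic negative, 24 in postnatal positive and 23 in postnatal negative cells. The number of members at 10 CPM or more in a cell had medians of 14 in embryonic positive, 13 in embryonic negative, 13.5 in postnatal positive and 14 in postnatal negative cells. Members at that level in every cell of a group were 7 in embryonic positive cells (Slc25a3, Slc25a4, Slc25a5, Slc25a11, Slc25a12, Slc25a13 and Slc25a51) and 5 in embryonic negative cells, which lacked Slc25a13 and Slc25a51. They were 5 in postnatal positive cells (Slc25a3, Slc25a4, Slc25a5, Slc25a11 and Slc25a51) and Slc25a3, Slc25a4 and Slc25a5 in postnatal negative cells.

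**Figure D4:**
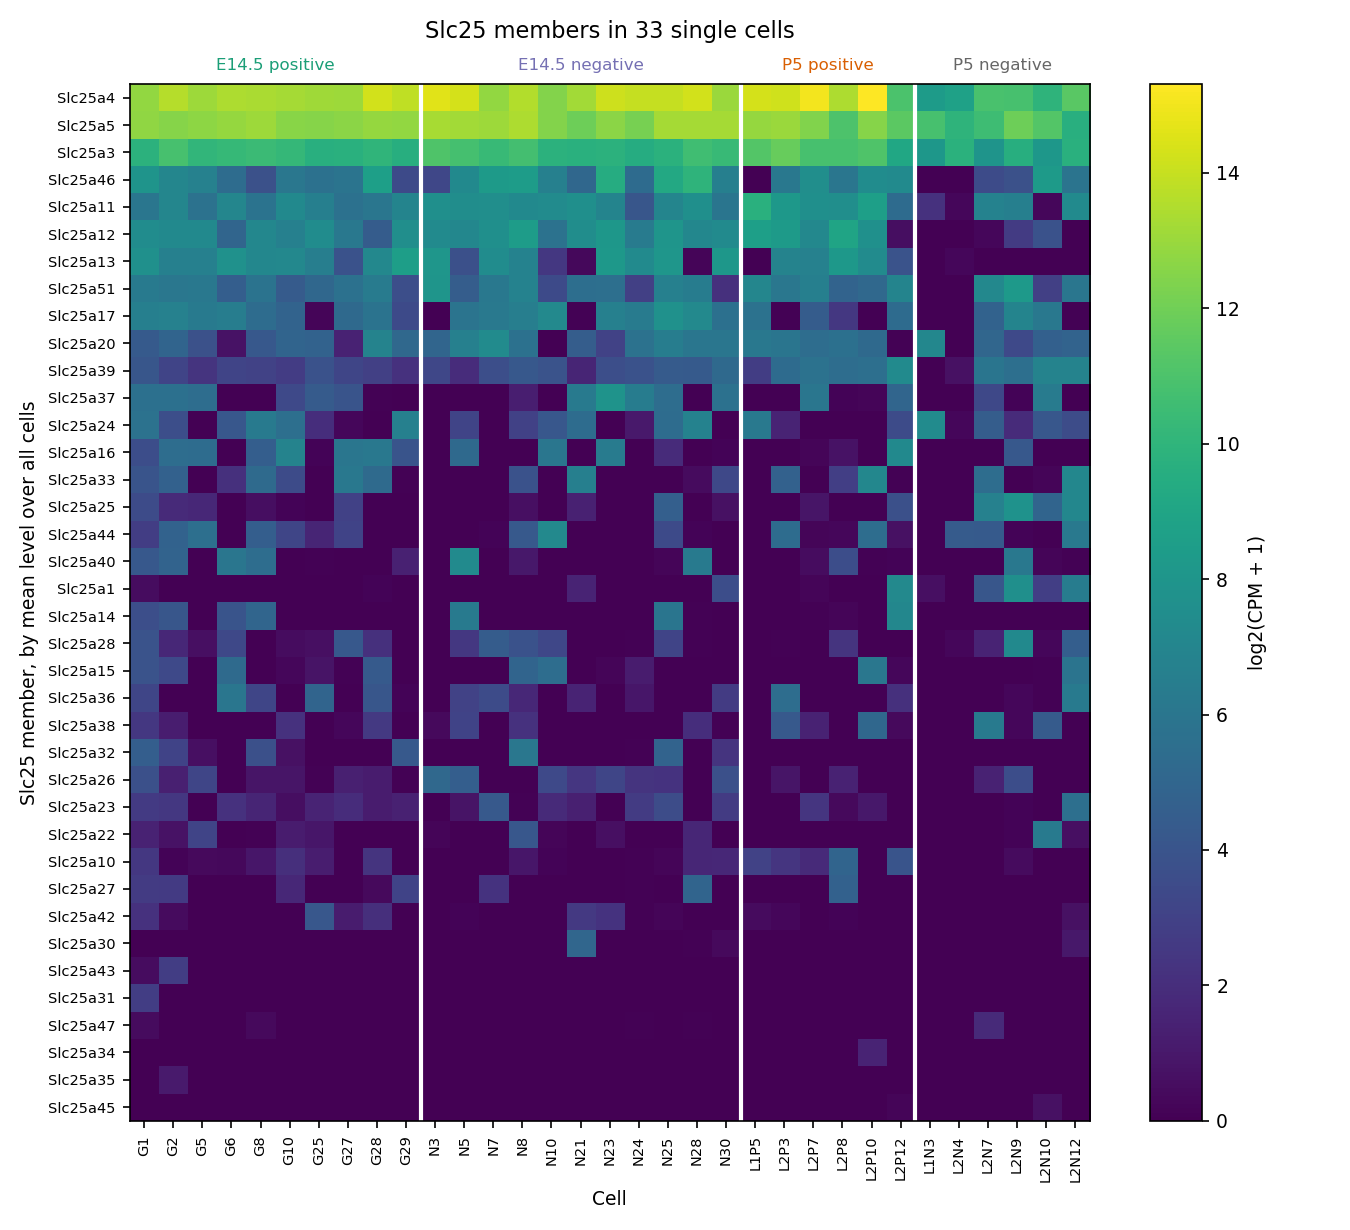
Level of 38 of the 39 members in each of the 33 cells as log2(CPM + 1), with cells ordered by group. Slc25a3, Slc25a4 and Slc25a5 are at 10 CPM or more in all cells, whereas most other rows are patchy, with 9 to 13 members reaching 10 CPM in no cell of a group.

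Counted over the family, a member was called higher or lower when summed counts differed at least 2-fold, and in a stricter count when the median cell did as well. For postnatal positive over embryonic positive cells 36 members had enough counts. In sums 9 were higher (against 30.3% of all genes tested) and 12 lower (against 40.9%). In the stricter count 3 were higher (Slc25a10, Slc25a11 and Slc25a39, against 10.1% of all genes) and 5 lower (Slc25a17, Slc25a23, Slc25a24, Slc25a26 and Slc25a28, against 20.3%). The stricter count was 5 higher and 5 lower with edgeR's TMM factors, and 5 higher and 4 lower with DESeq2's size factors. The median log2 ratio was 0.12 for members and -0.39 for all genes, and the members' value was -0.02 with equal weights for cells. Without L2P12, 8 were higher in sums (against 24.5%) and 15 lower (against 49.0%). The stricter count was then 6 higher, with Slc25a3, Slc25a12 and Slc25a38 added (16.7%, against 9.29%), and 6 lower (16.7%, against 24.7%), and the medians were -0.11 and -0.93.

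For embryonic positive over embryonic negative cells 37 members were counted. In sums 9 were higher (against 22.4% of all genes tested) and 11 lower (against 29%). In the stricter count Slc25a16, Slc25a33 and Slc25a36 were higher (8.5% of all genes) and Slc25a26 and Slc25a46 lower (4.4%). With DESeq2's size factors the stricter count was 1 higher and 2 lower. With equal weights for cells it was 2 higher and 3 lower, and the count in sums 8 higher and 7 lower. The median log2 ratio was -0.35 for members and -0.16 for all genes, and no member had cells that did not overlap, against 0.198% of all genes. Without N10, 10 were higher in sums (against 24%) and 12 lower (against 27.6%). The stricter count then held Slc25a44 as a further higher member (against 8.88%) and the same 2 lower ones (against 5.04%), and no member separated the groups (0.2% of all genes).

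For postnatal positive over postnatal negative cells, whose leading cell markers differ, 35 members were counted. In sums 11 were higher (against 34.2% of all genes tested) and 12 lower (against 39.4%). In the stricter count 7 were higher (against 17.3%), namely Slc25a3, Slc25a4, Slc25a5, Slc25a10, Slc25a11, Slc25a12 and Slc25a13, and Slc25a24, Slc25a25 and Slc25a28 were lower (against 14.4%). No member separated these groups, against 1.56% of all genes. Slc25a4 was 10.3-fold higher (log2 3.36), Slc25a3 had a log2 ratio of 1.94 and Slc25a5 of 1.27, which was 1.00 without L2P3 and then just under 2-fold. The members' median of -0.51, beside -0.29 over all genes, became 0.37 without L2N12 and 0.06 with equal weights for cells.

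For postnatal negative over embryonic negative cells 34 members were counted. In sums 10 were higher (against 33.6% of all genes tested) and 17 lower (against 41.7%). In the stricter count Slc25a1, Slc25a25 and Slc25a39 were higher (against 12.9%) and 9 were lower (26.5%, against 17.5%), and with DESeq2's size factors 4 were higher and 7 lower. These 9 were Slc25a3, Slc25a4, Slc25a5, Slc25a12, Slc25a13, Slc25a17, Slc25a26, Slc25a37 and Slc25a46. Cells of Slc25a4 and Slc25a12 did not overlap between the groups (2 of 34, against 2.2% of all genes), and the log2 ratios of Slc25a4, Slc25a5 and Slc25a3 were -3.13, -2.10 and -1.28. The last was -0.94 without L2N7. These 4 comparisons share groups, so their counts are not independent of each other.

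Proteins that work with the carriers were counted from lists of the same pathways, for postnatal positive over embryonic positive cells. Of 16 ATP synthase genes, which use the ADP and phosphate that the carriers supply, 6 were higher in the stricter count (Atp5d, Atp5f1, Atp5g1, Atp5g2, Atp5j2 and Atp5l) and 0 lower, against 10.1% and 20.3% of all genes, with a median log2 ratio of 0.72 beside -0.39 for all genes. Without L2P12 it was 7 higher and 0 lower (against 9.29% and 24.7%) at a median of 1.07 beside -0.93. Atp5g1, a subunit of the membrane ring, stood at 347 CPM in embryonic positive and 5480.4 CPM in postnatal positive cells. Of 9 genes of the TIM22 route that inserts carriers into the inner membrane, Timm13 was higher and Timm9 lower, at a median of -0.15. Without L2P12, Timm8a1 was lower too, and the median was -0.48.

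Of 6 outer membrane channel and pore partners, 2 were higher in both counts, Tspo and Ckmt2, against 30.3% of all genes in sums and 10.1% in the stricter count. Ckmt2, the mitochondrial creatine kinase, stood at 14.7 CPM in embryonic positive and 1127 CPM in postnatal positive cells. Of 4 pyruvate and calcium entry genes 2 were higher in sums (against 30.3%) and 0 in the stricter count (against 10.1%). Of 4 carriers under other symbols (Ucp2, Ucp3, Mtch1 and Mtch2) 3 were higher in sums (against 30.3%) and Ucp2 in the stricter count (against 10.1%). Without L2P12, 2 of these 4 carriers were higher in sums (against 24.5%) and 0 in the stricter count (against 9.29%). In postnatal positive over postnatal negative cells 15 of the 16 ATP synthase genes were higher in the stricter count (against 17.3% of all genes) and 0 lower (against 14.4%), with a median of 2.36 beside -0.29. For embryonic positive over embryonic negative cells none of the 16 passed 2-fold in either direction.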

How the data were processed

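Raw read counts per gene were deposited by the authors as a table of 14862 gene rows and 33 cells, without normalization. Per the submitters' processing notes, CASAVA 1.8.2, STAR 2.4.0j and HTSeq 0.6.1p1 were used with build mm10, and the settings, annotation and strand rule are not given in the sources used here. Per the labels' protocols, single-cell mRNA was amplified as antisense RNA before a TruSeq library, and cells were accepted when PCR found a cardiomyocyte marker and no marker of other heart cells. Amplified reads are not independent molecules, so intervals cover counting error only. Reads that fit near-identical copies, such as Slc25a5 and Slc25a5-ps, may be split or lost by the counting.

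Levels are counts per 1000000 (CPM) of the pooled counts of all cells in a group, which weights deeper cells more. A ratio between groups is a log2 ratio of these sums with 0.5 count added to each side, for genes that had 10 or more counts in both groups together. A gene was called at 2-fold in sums and, in the stricter count, also in the median cell with 1 CPM added. Members described singly reached 20 CPM in a group. Slc25a10, Slc25a23, Slc25a26 and Slc25a36 lie under that level and were named after their values were seen. Exon lengths and positions are from GENCODE M21, in which 39 of 39 members matched, and promoters from RefSeq. With 1 sample per group no test was possible. The calculation was tested on simulated data. The values of 1 member are not reported here, though it is in the counts over the family.

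Alternatives were equal weights for cells, the TMM factors of edgeR 4.0.16, the size factors of DESeq2 1.42.0, a minimum of 50 counts, leaving out each cell, leaving out cells led by other markers and, chosen after seeing the data, the ranges of title numbers. The members, pathway and marker lists were chosen with earlier results of these data known. Python 3.11.15 with pandas 2.3.3, numpy 2.4.6, scipy 1.17.1 and matplotlib 3.10.9 was used.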

Additional observations from a re-analysis of the deposited data

Results flagged for a closer look

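Single cells that stood apart from their group were looked for with Dixon's limit in the embryonic positive, postnatal positive and postnatal negative cells, for 6 measures of the family, which makes 18 combinations. Chance alone would point out about 1 in 20, or 0.9 of 18, and 2 were found. The number of members at 10 CPM or more was highest in the embryonic positive cell G1, at 23, and next highest at 17. G1 was also the cell with the most genes detected, 10769. The level of Slc25a3 was lowest in the postnatal positive cell L2P12, at 9.12 on the log2(CPM + 1) scale, and next lowest at 10.84. L2P12 is the postnatal positive cell with 94.2 CPM of cardiomyocyte and 4615 CPM of endothelial markers. The part of these values in the 2 results was not tested. The 11 embryonic negative cells are more than Dixon's table covers here.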

How the results depend on the processing

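Counts of called members stayed within 1.5 times, and isoform ratios and medians within the standard deviation between single cells, in 84 of 87 recalculations other than leaving out a cell. The same held in 296 of 297 that left out a cell. Leaving out 1 cell seldom moves a group's value by as much as that deviation, so the last count says little about stability. The split of calls into higher and lower and the sign of the members' median turned in some of these recalculations, as given with the counts. The exceptions were the stricter count for embryonic positive over negative cells, 5 in the report, which was 3 with DESeq2's size factors, 8 for title numbers 1 to 10 and 10 for title numbers 21 to 30 (fewer cells in both), and the median of members for postnatal positive over postnatal negative cells, which ran from -0.73 to 0.37 when single cells were left out. Of 51 named ratios past 2-fold, 5 changed sign when a single cell was left out, and of 41 under 2-fold, 25 did. Those past 2-fold that changed sign were Slc25a14 for postnatal over embryonic positive cells (-5.93 without cells led by other markers, -5.93 to 3.66 when single cells were left out) and for embryonic positive over negative cells (-2.15 to 0.0022). For postnatal positive over negative cells leaving out single cells gave -2.89 to 12.38 for Slc25a16, -2.96 to 0.52 for Slc25a38 and -6.17 to 5.76 for Slc25a40. At title numbers 1 to 10, embryonic positive over negative cells gave 3.11 for Slc25a1 and 6.15 for Slc25a37. The cause was not tested. Named ratios kept their sign in 81 of 92 with equal weights for cells, 89 with TMM factors, 89 with DESeq2's size factors and 40 of 46 without cells led by other markers, which could not be run for postnatal negative cells, since none would remain. Both the sign and the side of 2-fold were kept in 69, 87 and 86 of 92 and in 37 of 46, in the same order. For postnatal over embryonic positive cells TMM factors moved the median of all genes by 0.16, DESeq2's size factors by 0.38 and leaving out L2P12 by -0.54. No paired analysis was possible because no label names an animal that would link cells of different groups. What the numbers and the prefixes L1 and L2 in the titles stand for is not given in the sources used here. Intervals hold counting error only, and many members under 10 CPM rest on 1 cell.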
